A study of Mus musculus with 6 samples.

Results

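The respiratory chain and the mitochondrial ribosome were examined in mouse embryos that developed without sperm. The genes were those of complexes I to V of oxidative phosphorylation, of 1 assembly factor and of the proteins of the mitochondrial ribosome, chosen by gene symbol among array probes annotated with exactly 1 gene. The choice gave 50 genes, of which 49 had a ratio and 1, Atp5h, encoding a stalk subunit of ATP synthase, was listed at exactly 0 on all 6 arrays and was left out. The 49 genes, 28 of the respiratory chain with its assembly factor and 21 of the ribosome, stand among 4742 named genes measured, through 63 of 22132 probes. A further 210 probes list such a gene among several genes and were not used.

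Eggs at metaphase II were activated with cycloheximide, an inhibitor of protein synthesis that activates eggs without a calcium rise, or with strontium chloride, which sets off repeated calcium waves in the egg. Both groups also received cytochalasin D, a blocker of polar body extrusion, so no group lacks it, and the embryos of both groups were kept for 60 h in KSOM medium. Each group held 3 arrays with 2 colours, on which Cy3-labelled RNA equivalent to 25 embryos, amplified in 2 rounds, met Cy5-labelled universal mouse reference RNA amplified in 1 round. The labels name no strain and do not say whether each array had a culture of its own, so every p-value below rests on the spread between these samples alone, and that spread may be technical. As the title puts it, the study asked what activation without a calcium rise does to later development and gene expression.

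Every value below is a log2 ratio of embryo over reference unless it is called a difference, which is cycloheximide minus strontium on the same log2 scale. A ratio of 1 means 2-fold more signal in the embryo channel, relative to the reference channel, and not an absolute level, so no gene's level was set against another's. The direction of the deposited ratio is not stated and was taken as likely from the dyes; with the opposite direction every sign turns. As a check, 9 measured marker genes of the preimplantation embryo had a median between 0.68 and 1.82 on the 6 arrays, above that of 3 fibroblast genes, between -5.73 and -3.96, on 6 of 6. All 9 embryo genes lay above 0, and 8 of them passed the test against the reference. Of these genes, Tdgf1 was at the limit of the deposited ratio on all 6 arrays, and Dppa2 had 2 values and Dppa3 1 value there. For Nanog 4 values were listed at exactly 0, and the fibroblast gene Col1a1 had 1 value at the limit. The markers of other cells were few: 3 cumulus and granulosa genes had array medians from -0.78 to 0.30, 3 blood genes from -0.05 to 0.36, 2 oocyte genes from 0.16 to 1.45, 4 heart and muscle genes from -0.54 to -0.01, and the 2 liver genes, Tat and Ttr, from -0.07 to 1.50. Single genes lay further out than these medians. Of the blood genes, Ptprc was lower at -2.64 and S100a8 higher at 0.57, both past the test, while S100a9 at 0.20 was not. Gja1, of the cumulus and granulosa genes, was lower at -1.20. The part of such cells in the results below was not tested. Dye and number of amplification rounds were the same on every array, so their effect on a ratio cannot be told apart from a difference between embryo and reference, and fewer cells with a transcript cannot be told apart from less RNA per cell.

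Array 3 of cycloheximide stood apart from its group, and array 3 of strontium did so less. Across probes these arrays had a correlation of 0.909 with each other. That of cycloheximide reached 0.762 and 0.810 with the rest of its group. That of strontium reached 0.887 and 0.878 with arrays 1 and 2 of strontium, which had 0.918 with each other. The interquartile ranges of the arrays numbered 3 were 1.60 and 1.59, against 1.11 to 1.41 on the others. Of the 49 genes, 28 had their lowest cycloheximide ratio on array 3 (57.1%), against 41.5% of all genes, and 17 were lowest on array 3 in both groups (34.7%, against 25.5% of all genes). Some results are therefore also given without these arrays, and those given only with all arrays may depend on them too. None of the 63 probes was at exactly 0 or at the limit of the ratio on any array, so no value of a member rests on an unset or limited ratio.

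The respiratory chain passes electrons from NADH through complex I, or from succinate through complex II, to complex III and on to complex IV, which reduces oxygen. The protons pumped on the way drive complex V, the ATP synthase. Most subunits are encoded in the nucleus and imported, while a few core subunits are made from mitochondrial DNA by the organelle's own ribosome, whose proteins are all encoded in the nucleus. In the mouse the mitochondria of the embryo come from the egg, and early cleavage embryos rely on oxidation of pyruvate.

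Between the activation groups no gene of the respiratory chain or the mitochondrial ribosome passed the test. Against the reference RNA the genes diverged widely, from Ndufs4 at -4.99 to Cox6b1 at 2.25, with both signs in every complex except complex II. By limma with Benjamini-Hochberg adjustment over the 4742 genes, 17 of 49 genes were higher in the embryo channel (34.7%, where 39.3% of all genes were) and 16 were lower (32.7%, where 26.3% of all genes were). With a size of at least 2-fold as well, 4 were higher (8.16%, against 11.2% of all genes) and 12 were lower (24.5%, against 16.3% of all genes). By the adjusted limma p alone, 23 of the 49 were higher and 18 lower without both arrays numbered 3, beside 2064 and 1306 of the 4742 genes. The median ratio was -0.04 over the 49 genes and 0.16 over all genes. With each array left out in turn, the median of the 49 ranged from -0.12 to 0.06, so its sign is not settled. When each array was centred on its median, which moved the median of all genes from 0.16 to -0.01, the split became 12 higher and 17 lower, and that of all genes turned from 1865 higher and 1246 lower to 1348 and 1504.

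**Figure D1:**
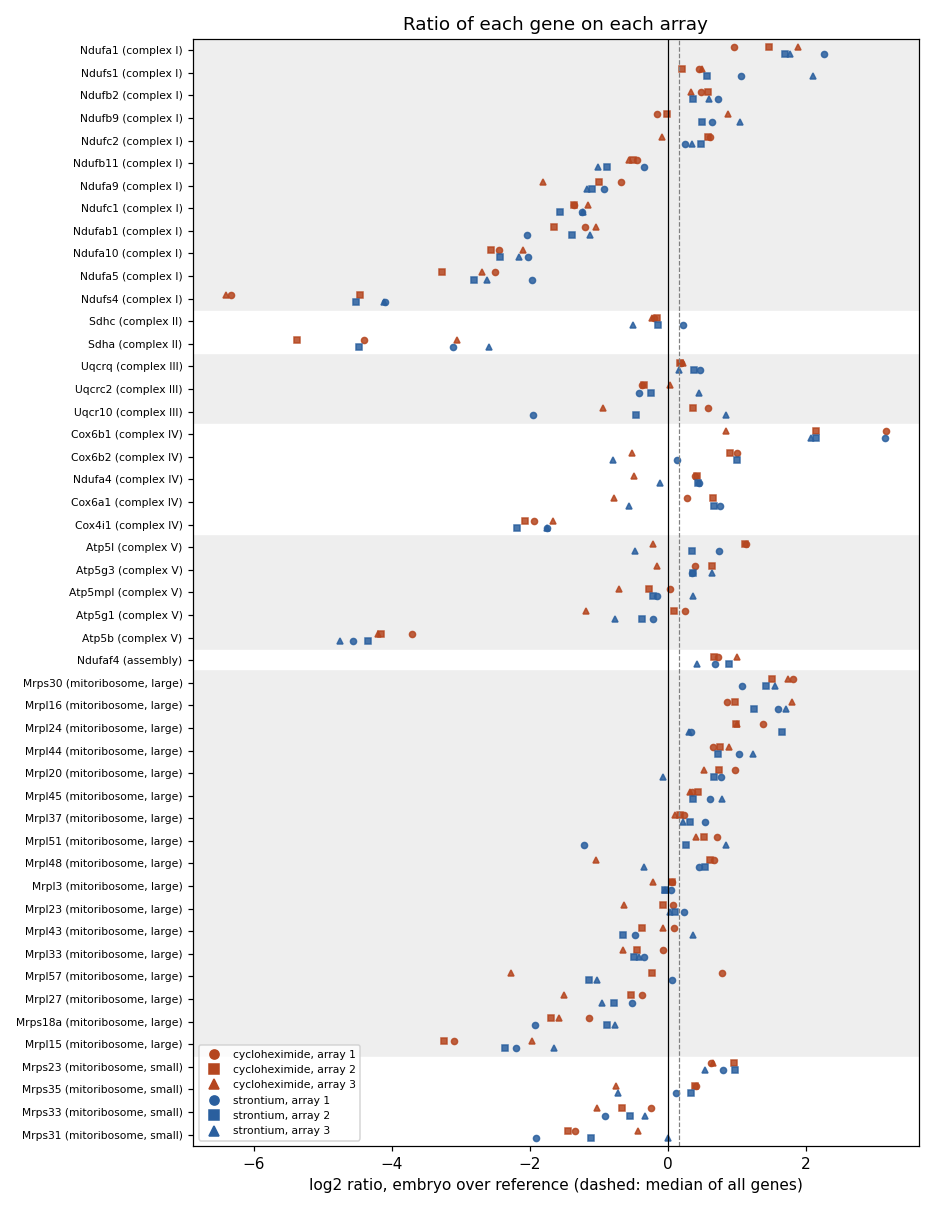
Log2 ratio of embryo over reference (horizontal axis) for each of the 49 genes on each of the 6 arrays, grouped by complex and ordered by mean ratio. Colour gives the activation group and shape the array number; the solid line is 0 and the dashed line the median of all genes, 0.16. Ndufs4, Atp5b and Sdha lie below -2 on every array and Cox6b1 above 0 on every array, while the triangles of array 3 often lie apart from the other arrays of their group.

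Complex I held the most genes called lower than the reference. Of its 12 genes, 7 were lower (58.3%, against 26.3% of all genes) and 5 higher (41.7%, close to the 39.3% of all genes). Of the 7 lower ones, 6 were at least 2-fold lower, or 50% of the 12, against 16.3% of all genes. The median of the 12 was -0.56, -0.76 and -0.80 on the cycloheximide arrays and -0.64, -0.996 and -1.08 on the strontium arrays, below 0 and below the median of all genes on 6 of 6 arrays. Ndufs4, an accessory subunit whose loss destabilises the complex, was at -6.34, -4.46 and -6.40 on arrays 1 to 3 of cycloheximide and at -4.09, -4.52 and -4.11 on those of strontium. Arrays 1 and 3 of cycloheximide were the low ones, and array 2 of cycloheximide lay within the strontium range. The difference for Ndufs4 was -1.49 (SE 0.54), with an unadjusted limma p of 0.0328 and an adjusted p of 0.740, so it did not pass. Without array 2 of cycloheximide it was -2.13 and without both arrays numbered 3 -1.09.

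At the other end of complex I, Ndufa1, a small accessory subunit, was at 0.95, 1.46 and 1.87 after cycloheximide and 2.26, 1.69 and 1.76 after strontium. It was above 0 on all 6 arrays, with a mean ratio of 1.66 (SE 0.15, adjusted p 2.05e-04 by limma), or 3.17-fold, and a difference of -0.48 that did not pass (SE 0.30). Ndufs1, the iron-sulphur core subunit of the arm that takes electrons from NADH, was at 0.45, 0.20 and 0.49 after cycloheximide and 1.06, 0.57 and 2.10 after strontium. The strontium arrays all lay above the cycloheximide arrays, with a difference of -0.87 (SE 0.40, unadjusted limma p 0.0717, adjusted p 0.792), and array 3 of strontium stood well above its group. Without both arrays numbered 3 the difference was -0.49.

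The other lower subunits of complex I had mean ratios of -2.65 for Ndufa5, -2.29 for Ndufa10, -1.41 for Ndufab1, -1.32 for Ndufc1, -1.12 for Ndufa9 and -0.63 for Ndufb11. Ndufab1 is the acyl carrier protein of the organelle and also serves its fatty acid synthesis. Each of these 6 genes lay below 0 on all 6 arrays. On the higher side stood Ndufb2 at 0.51, a membrane arm subunit whose probe average was above 0 on 6 of 6 arrays. Its 3 probes averaged 0.07, 0.51 and 0.95. The lowest of these probes fell to -0.48 and -0.17 on array 3 of cycloheximide and of strontium. Ndufb9 at 0.47 and Ndufc2 at 0.36 lost their calls when single arrays were left out. For Ndufb9 the adjusted limma p was 0.0622 without array 2 of cycloheximide, and 0.0847, 0.0615 and 0.115 without arrays 1, 2 and 3 of strontium. For Ndufc2 it was 0.109 and 0.115 without arrays 1 and 2 of cycloheximide, and 0.0689, 0.105 and 0.0783 without arrays 1 to 3 of strontium. With all 6 arrays Ndufb9 also lost its call when arrays were centred (0.30) or scaled to equal spread (0.40). The same held with position correction (0.40) and quantile normalization (0.39). Ndufaf4, an assembly factor of complex I and no subunit, was higher at 0.73 (SE 0.10), with 0.73, 0.66 and 1.00 after cycloheximide and 0.67, 0.88 and 0.42 after strontium.

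Complex II was represented by 2 genes with unlike ratios. Sdha, the flavoprotein that oxidises succinate, was at -4.41, -5.38 and -3.07 after cycloheximide and at -3.11, -4.48 and -2.59 after strontium. Its mean ratio was -3.84 (SE 0.36, adjusted limma p 2.57e-04), and the array number ordered the values in the same way in both groups, array 2 lowest and array 3 highest. Sdhc, a membrane anchor subunit, was at -0.21, -0.16 and -0.24 and at 0.21, -0.15 and -0.51, and did not pass against the reference. The differences were -0.89 (SE 0.72) for Sdha and -0.05 (SE 0.22) for Sdhc, both short of the threshold.

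The 3 genes of complex III had mean ratios from -0.26 to 0.26. For Uqcr10 and Uqcrc2 these are means over widely differing arrays or probes. Uqcrq, which encodes the ubiquinone-binding accessory subunit, was at 0.18, 0.18 and 0.22 after cycloheximide and 0.46, 0.37 and 0.16 after strontium. Its mean of 0.26 passed against the reference with all arrays, but not without array 1 or 2 of either group, where the adjusted limma p lay between 0.0707 and 0.0806. Uqcr10, a small subunit, was at 0.57, 0.36 and -0.94 after cycloheximide and -1.95, -0.47 and 0.84 after strontium. Array 3 of each group was at the far end from the first for Uqcr10, in opposite directions. Its difference was 0.52 (SE 0.77) with all arrays and 1.68 without both arrays numbered 3. Uqcrc2, a core subunit, averaged -0.16 over probes that went opposite ways, and passed at -0.35 without both arrays numbered 3 (adjusted limma p 0.0125).

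In complex IV, 4 of 5 genes had mean ratios above 0. By the test 1 gene, Cox6b1, was higher (20%, against 39.3% of all genes) and 1, Cox4i1, was lower (20%, against 26.3%). The call of Cox4i1 turns with the probe: its mean was -1.90 over probes at -4.25 and 0.45, and with the least variable probe alone it was at 0.45, above 0 like the other genes of the complex. Cox6b1, the widely expressed form of subunit 6b, was at 3.15, 2.14 and 0.84 after cycloheximide and 3.14, 2.15 and 2.07 after strontium. It was the member furthest on the embryo side, with a mean of 2.25 (SE 0.31, adjusted limma p 0.00120), or 4.75-fold, and above 97.8% of all genes. Cox6b2, the testis form of the same subunit, was at 0.99, 0.89 and -0.53 after cycloheximide and 0.12, 1.00 and -0.79 after strontium, and its mean of 0.28 did not pass. On every array the ratio of Cox6b1 exceeded that of Cox6b2, by 1.59 ± 0.50 after cycloheximide and 2.35 ± 1.04 after strontium (SD, n = 3 arrays each); these are ratios over the reference, not levels of the isoforms.

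Cox6a1, the common form of subunit 6a, was at 0.28, 0.64 and -0.78 after cycloheximide and 0.75, 0.66 and -0.56 after strontium. Ndufa4, named for complex I but a subunit of complex IV, averaged 0.18 and likewise fell below 0 on array 3 of each group. Its least variable probe stayed above 0 there, at 0.03 and 0.24, and passed alone at 0.34. Without both arrays numbered 3 Cox6a1 was at 0.58 (adjusted limma p 0.00781), Ndufa4 at 0.42 (0.00556) and Cox6b2 at 0.75 (0.0224), all past the threshold. Of the 5 genes of complex IV, 4 were lowest on array 3 in both groups, and the complex median was -0.53 and -0.56 on these arrays, against 0.39 to 0.66 on the others. The differences between groups were -0.41 (SE 0.62) for Cox6b1, 0.34 (SE 0.59) for Cox6b2 and -0.24 (SE 0.50) for Cox6a1. Without both arrays numbered 3 they were -0.000629, 0.38 and -0.25.

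Complex V held a catalytic subunit far on the reference side and membrane subunits near it. Atp5b, the beta subunit that makes ATP, was at -3.71, -4.16 and -4.21 after cycloheximide and -4.57, -4.35 and -4.75 after strontium. All cycloheximide arrays lay above all strontium arrays, by 0.53 (SE 0.21, unadjusted limma p 0.0444, adjusted p 0.740). With the arrays scaled to equal spread the difference for Atp5b turned to -0.13. Atp5b and Ndufs1 were the only members whose groups did not overlap, 1 of 49 in each direction, where 6.01% of all genes were higher after cycloheximide without overlap and 5.9% higher after strontium.

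Atp5g1 and Atp5g3 encode the same subunit c of the rotor ring and differ in their precursor parts. Atp5g1 was at 0.24, 0.08 and -1.19 after cycloheximide and -0.22, -0.37 and -0.77 after strontium. Atp5g3 was at 0.39, 0.63 and -0.16 after cycloheximide and 0.35, 0.36 and 0.64 after strontium. The ratio of Atp5g1 lay below that of Atp5g3 on all 6 arrays, with a mean distance of -0.58 ± 0.44 after cycloheximide and -0.90 ± 0.44 after strontium (SD, n = 3 arrays each). Atp5g3 passed against the reference at 0.37, but lost the call without any array other than array 3 of cycloheximide, with an adjusted limma p between 0.0762 and 0.119.

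Atp5l, the membrane subunit g, was at 1.13, 1.11 and -0.23 after cycloheximide and 0.74, 0.35 and -0.48 after strontium. Its mean of 0.44 over 2 probes did not pass with all arrays and did at 0.66 without array 3 of cycloheximide (adjusted limma p 0.0293). With the least variable probe alone it passed at 0.58. That probe was at 0.23 and 0.05 on array 3 of cycloheximide and of strontium, where the other fell to -0.69 and -1.01. Atp5mpl, a small proteolipid of the membrane part, was at 0.03, -0.27 and -0.71 after cycloheximide and -0.17, -0.22 and 0.35 after strontium. All 5 genes of complex V were lowest on array 3 within the cycloheximide group. The median difference of the complex was 0.17 with all arrays and 0.62 without that array, and -0.10 without array 1 of cycloheximide.

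**Figure D2:**
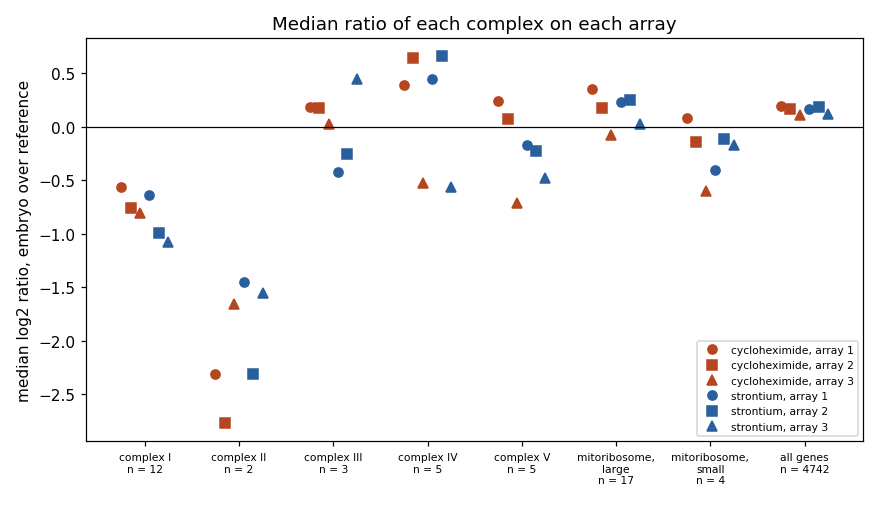
Median log2 ratio of embryo over reference (vertical axis) of the genes of each complex on each array, with n genes below each name and the median of all 4742 genes at the right. Colour gives the activation group and shape the array number; complex I lies below 0 on all 6 arrays, and complex IV drops to -0.53 and -0.56 on array 3 of each group.

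The mitochondrial ribosome was centred near the reference. Of its 21 genes, 8 were higher (38.1%) and 6 lower (28.6%), beside 39.3% and 26.3% of all genes, and the median was -0.03. In the large subunit, which joins the amino acids, 7 of 17 genes were higher and 4 lower, with a median of 0.14. In the small subunit, which reads the messenger RNA, 1 of 4 was higher and 2 lower, with a median of -0.33.

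Mrps30, named for the small subunit but a protein of the large one, was at 1.80, 1.50 and 1.74 after cycloheximide and 1.06, 1.41 and 1.54 after strontium. It was the ribosomal member furthest on the embryo side, at 1.51 (SE 0.10, adjusted limma p 5.59e-05). Mrpl15, of the large subunit, was the furthest on the reference side, at -3.11, -3.25 and -1.97 after cycloheximide and -2.20, -2.36 and -1.65 after strontium. The difference was 0.34 (SE 0.20) for Mrps30 and -0.71 (SE 0.39, unadjusted limma p 0.123, adjusted p 0.833) for Mrpl15. Without array 3 of cycloheximide the difference for Mrpl15 was -1.11 (unadjusted limma p 0.00725, adjusted p 0.206). In that setting 892 of the 4742 genes had an unadjusted limma p under 0.05.

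Other large subunit genes on the embryo side were Mrpl16 at 1.36, Mrpl24 at 0.94, Mrpl44 at 0.88, Mrpl20 at 0.60, Mrpl45 at 0.47 and Mrpl37 at 0.26. Mrpl45 lost its call with the least variable of its probes, which averaged 0.03 where the other averaged 0.92. Mrpl37 lost its call without array 1 or 2 of either group, with an adjusted limma p between 0.0714 and 0.0872. On the reference side were Mrps18a at -1.34, which like Mrps30 belongs to the large subunit, Mrpl27 at -0.79 and Mrpl33 at -0.41. The remaining 6 did not pass: Mrpl57 at -0.64, Mrpl43 at -0.19, Mrpl23 at -0.05, Mrpl3 at -0.03, Mrpl48 at 0.14 and Mrpl51 at 0.25. Of these, Mrpl57 ranged from 0.78 to -2.28 within the cycloheximide group. Mrpl48 passed at 0.56 without both arrays numbered 3 (adjusted limma p 0.00325). Mrpl51 passed at 0.55 without array 1 of strontium (adjusted limma p 0.0177) and Mrpl43 at -0.35 without array 3 of strontium (0.0398).

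In the small subunit, Mrps23 was at 0.62, 0.95 and 0.64 after cycloheximide and 0.80, 0.97 and 0.54 after strontium, above 0 on all arrays with a mean of 0.75. Mrps31 was at -1.35, -1.46 and -0.44 after cycloheximide and -1.91, -1.11 and 0.00 after strontium. Its mean of -1.04 passed with all arrays and not without array 2 of cycloheximide (-0.95, adjusted limma p 0.0521). Mrps33 was lower at -0.63, with -0.25, -0.67 and -1.04 and with -0.92, -0.56 and -0.34. Mrps35 was at 0.41, 0.39 and -0.76 after cycloheximide and 0.12, 0.34 and -0.72 after strontium, low on array 3 of each group, and its mean of -0.04 did not pass; without both arrays numbered 3 it was at 0.31 (adjusted limma p 0.0206).

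Between cycloheximide and strontium, 30 of 49 genes had differences below 0 (61.2%, against 54.7% of all genes) and 19 above, with a median of -0.08, against -0.03 over all genes. The sign of that median rests on array 3 of cycloheximide, without which it was 0.06; over all 6 arrays left out in turn it ranged from -0.13 to 0.06. At the threshold of 0.05 after adjustment, limma called 0 of 49 members and 0% of the 4742 genes; the smallest adjusted value reached was 0.740 for a member and 0.400 for any gene. At an unadjusted p under 0.05 there were 2 members, Ndufs4 and Atp5b, beside 6.64% of all genes. The median size of a difference was 0.22 over the members and 0.23 over all genes, and the median SE of the members was 0.30.

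The median difference by complex was -0.13 for complex I, -0.47 for complex II, -0.14 for complex III, -0.15 for complex IV and 0.17 for complex V, and -0.05 and -0.04 for the large and small ribosomal subunit. Only complexes I and II, of these 7 sets, kept the sign of the median whichever array was left out, from -0.23 to -0.06 and from -0.77 to -0.21. Without array 3 of cycloheximide the median was 0.18 for complex IV, 0.12 for the large subunit and 0.08 for the small subunit, which was also at 0.02 without array 2 of strontium. Without array 3 of strontium it was 0.10 for complex III. No direction between the groups can therefore be read from the medians of those sets. Of 12 genes of complex I, 8 were below 0; of 17 large ribosomal genes, 10 were. The 95% interval of a difference extended from -0.41 to 0.37 for Mrpl3, among the narrowest, and from -1.35 to 2.39 for Uqcr10, among the widest, so changes of more than 2-fold were outside the interval for the former and not for the latter.

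**Figure D3:**
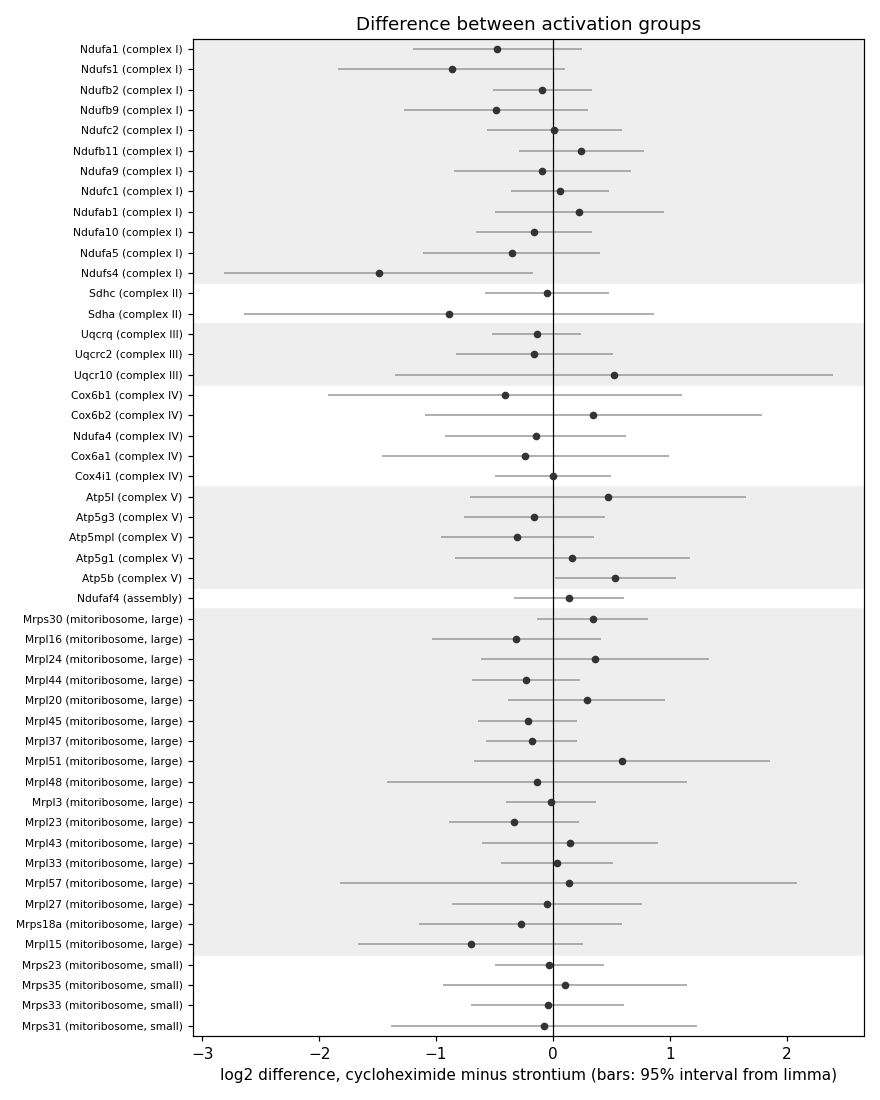
Difference in log2 ratio, cycloheximide minus strontium (horizontal axis), for each of the 49 genes, with its 95% interval from limma as a bar, in the order of the plot of ratios. The intervals of Ndufs4 and Atp5b exclude 0 before adjustment, on opposite sides, and those of the other 47 genes include it.

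Leaving out arrays numbered 3 changed which members had an unadjusted limma p under 0.05 between the groups but gave no calls. Without array 3 of cycloheximide 6 members had such a p, and their lowest adjusted p was 0.206. Over all 4742 genes the unadjusted count rose from 315 to 892. The 6 members were Atp5b (difference 0.62), Atp5g1 (0.62), Mrpl15 (-1.11), Mrpl16 (-0.61), Ndufa1 (-0.70) and Ndufb9 (-0.81). Without both arrays numbered 3 there were 6 members as well, with a lowest adjusted p of 0.218, beside 905 of the 4742 genes. Atp5l (0.58) and Uqcr10 (1.68) then stood in place of Atp5b and Ndufa1. Ndufs4 was not among the 6 members in either case.

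Where a gene had several probes, the probes did not always measure the same ratio. Of 12 members with 2 or 3 probes, 5 had probe means on both sides of 0 (41.7%, against 49.3% of the 1030 genes with several probes), and the median range between probes was 0.79, against 0.96. The widest was Cox4i1, the common form of subunit 4 of complex IV. One probe of Cox4i1 was at -4.54, -4.88 and -3.56 after cycloheximide and -3.97, -4.99 and -3.54 after strontium, and the other at 0.65, 0.73 and 0.22 and at 0.45, 0.63 and 0.03. The gene's mean of -1.90 therefore describes neither probe, the probes did not overlap on any array, and its sign depends on the probe. Its difference between groups was 0.00 (SE 0.20).

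The probes of Uqcrc2 averaged -1.14 and 0.83, those of Mrps33 -1.60 and 0.34, and those of Mrpl27 -1.64 and 0.07. The 3 probes of Mrpl48 averaged between -0.04 and 0.25, and 1 of them fell to -2.57 on array 3 of cycloheximide. The probes of Ndufb11, at -0.64 and -0.62, and of Mrps23, at 0.62 and 0.89, lay close together. The other 37 genes had 1 probe each, Ndufs4, Sdha, Atp5b and Cox6b1 among them, so their ratios have no second probe to be set against.

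**Figure D4:**
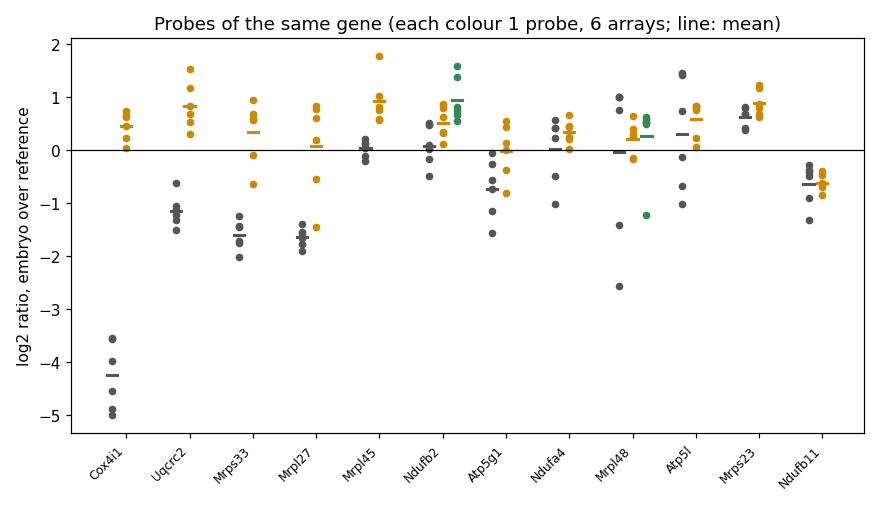
Log2 ratio of embryo over reference (vertical axis) of each probe of the 12 genes with several probes, ordered by the range between probe means; each colour is 1 probe, each point 1 of the 6 arrays and each line the probe's mean. The probes of Cox4i1 lie at -4.25 and 0.45 without overlap, and those of Ndufb11 at -0.64 and -0.62.

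Other genes of mitochondrial biology, taken from lists, gave 0 calls between the groups as well. The counts against the reference that follow stand beside 39.3% of all genes higher and 26.3% lower, and most lists are too short to be set against these shares. Of 7 measured genes of mitochondrial translation, 1 was higher and 3 lower than the reference: Gfm1, an elongation factor, was at 0.59, and Mars2, the methionyl-tRNA synthetase, at -5.11. Of 5 genes of mitochondrial DNA and its transcription, 2 were higher and 1 lower. Tfb1m, a methyltransferase of the small ribosomal RNA, was at 0.95 with 1 value listed at exactly 0, and Ssbp1, which binds single-stranded mitochondrial DNA, was at -5.49. Tfam, the transcription and packaging factor of that DNA, had a mean of -0.21 ± 0.39 in the cycloheximide group and -0.54 ± 0.42 in the strontium group (SD, n = 3 arrays each).

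Of 11 genes of protein import, 6 were higher (54.5%) and 4 lower (36.4%). Tomm40, the channel of the outer membrane, was at 2.93, Timm9, a carrier of the space between the membranes, at -3.31, and Tomm34 at 0.59 with the smallest unadjusted p of the list between groups (limma p 0.0812, difference -0.34). Of 4 genes of the citric acid cycle, 0 were higher and 2 lower, with Sucla2, a succinyl-CoA ligase subunit, at -3.77 and Ogdh, the 2-oxoglutarate dehydrogenase, at 0.25. Of the list of cytochrome c and carriers 2 genes were measured: Slc25a3, the phosphate carrier, was lower at -1.14 with a difference of 0.43 (SE 0.17, unadjusted limma p 0.0414), and Cycs, cytochrome c, was at -0.34. Of 3 assembly factors outside the symbol rule, Atpaf2 was higher at 0.60 and Ttc19, with the smallest p between groups, was at -0.11. Of 43 genes of the cytosolic ribosome, 14 were higher (32.6%, against 39.3% of all genes) and 16 lower (37.2%, against 26.3%), from Rpl41 at -4.04 to Rpl19 at 1.64. At an unadjusted limma p under 0.05 between the groups, where 6.64% of all genes stood, there was 1, Rpl29 (difference -0.49), with 3 of its values listed at exactly 0.

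Among regulators, Gabpa, the DNA-binding subunit of an ETS factor that acts on many nuclear genes of the respiratory chain, had a mean of 3.46 ± 0.13 in the cycloheximide group and 3.32 ± 0.53 in the strontium group (SD, n = 3 arrays each), with a difference of 0.14 (SE 0.29). Nrf1, a transcription factor of the same genes, was at -1.19 ± 1.48 and -1.03 ± 0.66. On array 3 of cycloheximide Nrf1 was at -2.89, against -0.32 and -0.36 on arrays 1 and 2. Ppargc1b, a coactivator of mitochondrial genes, was at 0.57 ± 0.08 and -0.32 ± 1.01, a difference of 0.90 (SE 0.49) that did not pass.

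Promoter windows of 300 bases, 250 before and 50 after the start, were matched for 40 of the 49 genes and for 3763 of all measured genes in RefSeq's table of build GRCm38.p6. The letters CCGGAAG, the core that ETS factors such as GABPA recognise, were sought on both strands. They occurred in the promoters of 10 of 19 genes of the mitochondrial ribosome (52.6%) and 3 of 20 of the respiratory chain (15.0%). The shares were 16.8% of measured genes and 9.93% of all genes of the table. Several windows were matched for 2 members and 838 measured genes. A member counted if any of its windows held the letters, as with Mrpl48, which had 4 windows and 1 site. The longer CCGGAAGT, which contains these letters, occurred in 6 of the 19 and 0 of the 20, beside 6.99% of measured genes. The stretches below show these letters where the table gives them with 11 bases on each side, 10 sites of 9 ribosomal genes, all starting within 100 bases of the gene's start; in the promoter of Mrps33 they lie too near the window's edge. The sequences read 5′ to 3′ along the gene and capitals mark CCGGAAG or, on the opposite strand, its complement CTTCCGG.
Mrpl27 (chr11:94653725-94653753, plus strand): gtccgcaagacCCGGAAGtagatctatcc
Mrpl3 (chr9:105053238-105053266, plus strand): tgagaaacggaCCGGAAGtggcccggctg
Mrpl33 (chr5:31613937-31613965, plus strand): ccgcgcatgccCCGGAAGtagtcgttgag
Mrpl43 (chr19:45006481-45006509, minus strand): tcgcggtgactCCGGAAGcaaaactctcc
Mrpl43 (chr19:45006437-45006465, minus strand): caaccccggaaCCGGAAGtcaccggttag
Mrpl48 (chr7:100583147-100583175, minus strand): ggttttaaaaaCTTCCGGaaccaagatgc
Mrpl51 (chr6:125192099-125192127, plus strand): caggggctaaaCCGGAAGtatttgactgg
Mrpl57 (chr14:57826232-57826260, plus strand): ccccagagagaCCGGAAGcagcgcgccgc
Mrps18a (chr17:46110967-46110995, plus strand): acacccctgctCCGGAAGcggaagtgcac
Mrps23 (chr11:88204392-88204420, plus strand): tgccgcttccgCTTCCGGtaacagcccga

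The members whose promoters hold the letters ranged from Mrps18a at -1.34 to Cox6b1 at 2.25, with a median ratio of -0.03 over 13 genes, and the 27 without them from -4.99 to 1.66, with a median of 0.18. The median differences between the groups were -0.03 and -0.09. A match of letters is a description and not a bound site.

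The letters GCATGCGC, the core of the site of NRF1, were in the promoters of 4 of the 40 genes (10%, beside 5.55% of measured genes): Atp5l, Cox6a1, Mrpl33 and Ndufaf4. The longer palindrome of NRF1, which contains them, was in 2 of these, Cox6a1 and Ndufaf4 (5.0%, beside 1.99%). The letters AAGATGGC of YY1 sites were in 5 (12.5%, beside 5.13%): Ndufs4, Ndufa9, Ndufc1, Mrpl37 and Mrps18a; the partly overlapping CCAAGATGG was in 1, Mrps18a (2.5%, beside 1.57%). TATAAA, the letters of a TATA box, were in 3 (7.5%, beside 11%). The 4 genes with GCATGCGC had a median ratio of 0.30, against -0.04 for the other 36. The 5 genes with the YY1 letters had a median ratio of -1.32, against 0.17 for the other 35. Ndufs4, Ndufa9 and Ndufc1 among these 5 belong to complex I, whose median was low, so letters and complex cannot be told apart here. No link of letters and ratio was tested.

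The whole windows of the members at the ends of the range, Ndufs4 and Cox6b1, are shown for comparison, with the letters of NRF1, ETS or YY1 sites in capitals. That of Ndufs4 holds AAGATGGC 36 bases after the start and no ETS letters. That of Cox6b1 holds CTTCCGG, the ETS letters on the opposite strand, 28 bases before the start.
Ndufs4 (chr13:114388045-114388344, minus strand): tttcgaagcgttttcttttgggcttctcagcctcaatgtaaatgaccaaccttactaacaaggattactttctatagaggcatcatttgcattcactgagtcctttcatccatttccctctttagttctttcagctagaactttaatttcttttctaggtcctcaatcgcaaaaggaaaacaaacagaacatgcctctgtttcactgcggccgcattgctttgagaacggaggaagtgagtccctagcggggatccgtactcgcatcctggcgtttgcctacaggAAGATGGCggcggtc
Cox6b1 (chr7:30626065-30626364, minus strand): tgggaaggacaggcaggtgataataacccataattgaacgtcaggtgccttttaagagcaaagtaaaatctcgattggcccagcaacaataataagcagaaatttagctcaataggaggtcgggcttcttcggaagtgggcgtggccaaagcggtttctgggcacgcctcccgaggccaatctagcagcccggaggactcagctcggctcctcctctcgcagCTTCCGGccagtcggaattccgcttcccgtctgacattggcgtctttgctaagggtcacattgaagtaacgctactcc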

How the data were processed

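The deposited values are log10 ratios of the array channels, made with Agilent Feature Extraction per the submitters' processing notes (version not given), with limits of -2 and 2; further normalization is not given in the sources used here. Their sign was reversed, and a factor of 3.32 put them on the log2 scale, embryo over reference. Of 22132 probes, 211 at exactly 0 on all 6 arrays were dropped and only those annotated with 1 gene were kept, giving 4742 genes by averaging probes. Arrays were grouped by the activating agent in the labels. limma 3.58.1 in R 4.3.3 (lmFit and eBayes over all 6 arrays, Benjamini-Hochberg over all genes, threshold 0.05) tested cycloheximide minus strontium, and the mean of both groups against 0. The same fit was run on simulated data with independent noise on each array. Such data lack the shared deviation of the arrays numbered 3, so the run does not show how the test behaves here. The number of arrays limits the precision. Summaries used Python 3.11.15 and pandas 2.3.3.

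The members and lists were chosen with earlier results of these data known. The text names, in each complex, the members with the highest and lowest ratio and the smallest p between groups, and the measured isoform pairs; the means of further called members complete the account. Ndufa4, Mrps18a and Mrps30 were placed by where the protein sits, after the values had been read. Alternatives covered centring, scaling, quantile and position correction, array weights, robust fitting, the choice of probe, values at 0 or at the limits, a replicate block and each array left out.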

Additional observations from a re-analysis of the deposited data

How the results depend on the processing

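With 3 arrays a group and a median SE of 0.30 for a member's difference, only large differences between the groups could pass, and the ratio says nothing of signal over background. Under every alternative run, 0 members passed between the groups. With the replicate block this count was 0 as well, with 4 members and 491 genes at an unadjusted p under 0.05; same-numbered arrays deviated together at 0.067, 0.324 and 0.491, and some arrays were closer to an array of another number. Array weights gave 5 members and 984 genes at that p. Of 980 alternative ratios of the 49 genes, 908 kept direction and side of the threshold, 33 lost the call, 21 gained it and 18 turned sign, in 7 genes. Of 460 alternative differences of 23 genes, 40 turned sign, in 15 genes, none of them called. The cause was not tested.

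Requiring at least 2-fold left 4 higher members. With centred arrays Ndufc2 (0.18), Atp5g3 (0.19), Uqcrq (0.09) and Mrpl37 (0.09) lost their calls, as Ndufb9 did. Without both arrays numbered 3, an alternative chosen after seeing the data, the median difference was -0.0822 for the assembly factor and 0.13 for the large ribosomal subunit. Ratios that turned sign were Cox4i1 at 0.45 with the least variable probe, and Cox6a1 at -0.00867 and Mrpl48 at -0.0323 with centred arrays. With array weights Mrpl23 was at 0.0482, Mrpl3 at 0.0140 and Mrps35 at 0.21, and without both arrays numbered 3 at 0.0815, 0.0244 and 0.31. Mrps35 was also at 0.0385 with scaled arrays, 0.0862 with position correction and 0.00540 with quantile normalization.

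Differences that turned sign with scaled arrays were -0.13 for Atp5b, -0.32 for Cox4i1, 0.11 for Cox6b1 and 0.0750 for Mrps23. With array weights they were 0.0979 for Atp5g3, -0.0704 for Cox4i1, 0.16 for Mrps33 and -0.0144 for Ndufaf4. Without both arrays numbered 3 they were 0.16 for Atp5g3, 0.0749 for Atp5mpl, -0.0409 for Cox4i1, 0.11 for Mrps31, 0.28 for Mrps33 and -0.0822 for Ndufaf4. Position correction gave 0.0174 for Mrps23, 0.0441 for Mrps33 and -0.00119 for Mrps35, and quantile normalization 0.0493 for Mrps23 and 0.000623 for Mrps33.

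With each array left out in turn, the median difference of complex V ranged from -0.10 to 0.62. Ratios ranged from -0.12 to 0.0580 for Mrpl23, -0.0515 to 0.0166 for Mrpl3, -0.00696 to 0.42 for Mrpl48, -0.15 to 0.15 for Mrps35 and -0.61 to 0.0923 for Uqcr10. Differences ranged from -0.10 to 0.62 for Atp5g1, -0.33 to 0.0639 for Atp5g3, -0.14 to 0.0907 for Cox4i1, -0.66 to 0.18 for Cox6a1, -0.96 to 0.19 for Cox6b1 and -0.11 to 0.84 for Cox6b2. They ranged from -0.15 to 0.0693 for Mrps23, -0.53 to 0.43 for Mrps31, -0.25 to 0.15 for Mrps33, -0.22 to 0.49 for Mrps35, -0.23 to 0.13 for Sdhc and -0.19 to 1.21 for Uqcr10.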
